A study of Mus musculus with 9 samples.

Results

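miR-126a is the microRNA (miRNA) counted in the deposited files under the miRBase precursor name mmu-mir-126a. It was found in the files by that name, as 1 of the 661 miRNA precursors and 1 of the 996 small RNA features listed over 9 libraries, and its reads that matched the genome and those that did not were summed. The libraries were made by PANDORA-seq, a small RNA protocol in which the RNA is treated with the demethylase AlkB and with a polynucleotide kinase, so that fragments with modified bases or ends can also be ligated and read. All RNA came from atrial appendages of C57BL/6 mice, with 3 libraries from each of 3 groups: mice of 18 months given 100 mg/kg curcumin daily in skim milk from the age of 12 months ("curcumin"), mice of 18 months without curcumin ("old"), and mice of 5 months without curcumin ("young"). Whether the mice without curcumin were given the milk alone, or whether a library came from 1 mouse, is not stated in the labels, so p-values measure the spread between these libraries. The design asks how the small RNAs of the atrial appendage differ with age and with curcumin in old age.

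miR-126 is known as the miRNA of endothelial cells, the lining of vessels and of the inner heart wall. It lies in an intron of Egfl7, which codes for a protein secreted by endothelial cells, and it is made from that gene's transcript. Its guide strand lowers Spred1 and Pik3r2, inhibitors of signalling downstream of vascular endothelial growth factor, and, in human endothelial cells, VCAM1, an adhesion molecule that holds leukocytes at the vessel wall. It is also found in platelets and in blood-forming cells. In RNA of a whole tissue, fewer cells of a type and less RNA per cell cannot be told apart, so a level of miR-126a below is a level in the tissue and not in its endothelium.

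The sequences are shown because the files count by precursor and not by arm, and because another precursor, miR-126b, is listed for the same place on the opposite strand. They were taken from RefSeq on GRCm38.p6, 5′ to 3′. The hairpin of miR-126a lies at chr2:26591357-26591429 on the plus strand and is 73 bases long, with the mature 3p arm, bases 46 to 67, in capitals. In the mature RNAs the capitals mark the seed, bases 2 to 8.
miR-126a hairpin: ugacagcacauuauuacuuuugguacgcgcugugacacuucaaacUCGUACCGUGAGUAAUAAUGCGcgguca
miR-126a-3p: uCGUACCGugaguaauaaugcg
miR-126b hairpin: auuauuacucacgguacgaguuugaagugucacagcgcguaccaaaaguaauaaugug
miR-126b-5p: aUUAUUACucacgguacgaguu
The hairpin of miR-126b, at chr2:26591363-26591420 on the minus strand, is the reverse complement of 58 bases inside that of miR-126a, and 19 bases of miR-126a-3p face miR-126b-5p. No other of the 1738 mature mouse miRNAs in the RefSeq table has the seed of miR-126a-3p. The opposite arm is miR-126a-5p, and a count of the precursor can hold reads of either arm. In the GENCODE M21 annotation, Egfl7 spans chromosome 2 from 26580014 to 26593120 on the plus strand, and 9 of its transcripts run across the hairpin. The hairpin is intronic in 8 of these and exonic in 1, a retained-intron transcript.

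Reads fell on the strand of miR-126a. The 3 curcumin libraries held 158089, 156680 and 110231 reads of miR-126a, the old libraries 137359, 52727 and 106359, and the young libraries 216677, 50088 and 53494 (replicates 1, 2 and 3 in each). Every one of these reads matched the genome, and every value is a whole number, where reads divided among precursors often leave fractions. miR-126b had 1 read, in curcumin replicate 3, and 0 in the other 8 libraries. A count of 0 allows up to 3 reads, which is between 0.152 and 0.233 RPM in those 8 libraries (RPM, reads scaled to a clean-read total of 1000000).

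miR-126a had more reads than any other miRNA precursor in 9 of 9 libraries. The next precursor was in each library 1 of the 2 loci of miR-1a, the miRNA of heart and skeletal muscle cells, and miR-126a had between 1.03 times its reads, in curcumin replicate 2, and 1.68 times, in old replicate 2. The loci of miR-1a share their reads, which the authors' counts divide evenly between them. With the loci of a mature miRNA added together, miR-1a came first and miR-126a second in all 9 libraries. The next miRNA after both loci of miR-1a, with each precursor counted apart, was let-7f-2, of the let-7 family that marks differentiated cells, in the 3 curcumin libraries, old replicate 1 and young replicate 1, and miR-191 in the other 4. miR-126a had 8.08 to 15.3 times the reads of that first precursor other than miR-1a. Together, miR-126a and both loci of miR-1a made up 63.1%, 63.3% and 63.1% of the miRNA reads in curcumin libraries, 60.5%, 54.2% and 61.1% in old libraries, and 61.1%, 54.2% and 56.4% in young libraries. Among all 996 features, which include fragments of ribosomal and transfer RNA, miR-126a ranked between 11, in young replicate 1, and 24, in old replicate 2. Mature miRNAs have nearly the same length, so reads were compared without scaling by length. Ligation differs between sequences, so an order by reads need not be an order by molecules.

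The libraries held 12899427 to 19707803 clean reads, of which miRNAs took 1.23% to 4.66%. The 3 libraries numbered 1 stood apart from the rest before any comparison: 72.2% to 73.7% of their clean reads matched the genome, against 65.0% to 68.3% in the other 6, and fragments of transfer RNA took 30.0% to 33.9% of their clean reads, against 18.3% to 23.4%. Shares, levels, ratios and changes of miR-126a are therefore given with and without them. The tissue label was checked against the muscle list: miR-1a and miR-133a were abundant and miR-208a, which lies in a gene of cardiac myosin, had 199 to 676 reads in every library, while miR-208b and miR-499 had 3 and 17 reads in all 9 libraries together.

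Per clean read, miR-126a was at a like level in the 3 curcumin libraries and varied widely among the libraries of mice without curcumin. It stood at 9029, 9066 and 7720 RPM in curcumin libraries, 8519, 3039 and 6356 in old libraries, and 10994.5, 3200 and 4147 in young libraries. The groups overlapped in each comparison, and the highest library was young replicate 1. The means were 8605 ± 767 in curcumin, 5972 ± 2760 in old and 6114 ± 4253 in young libraries (SD, n = 3 each). The difference of means was 2634 for curcumin against old (exact two-sided permutation test, p = 0.2), -142 for old against young (p = 0.9) and 2491 for curcumin against young (p = 0.4). With 3 libraries against 3 the smallest p this test can give is 0.1. Adjusted over the 12 tests of this kind described here and below, these p were 0.514, 0.982 and 0.533. Between libraries of like number, the level was higher in old than in young libraries in 1 of 3 and higher in curcumin than in young libraries in 2 of 3. It was higher in curcumin than in old libraries in 3 of 3, a comparison in which the numbers were not treated as pairs. Without the 3 libraries numbered 1 the differences were 3696 RPM for curcumin against old, 1024 for old against young and 4720 for curcumin against young, with exact permutation p of 0.333, 1 and 0.333, where 0.333 is the smallest possible.

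This level is the product of 2 quantities, the share of miRNAs among clean reads and the share of miR-126a among miRNA reads. miRNAs took 3.21%, 4.22% and 3.53% of clean reads in curcumin libraries, 3.32%, 1.23% and 2.37% in old libraries, and 4.66%, 1.34% and 1.88% in young libraries. The libraries lowest in miR-126a per clean read, old replicate 2 and young replicate 2, were also those lowest in all miRNAs. Across the 9 libraries the highest level of miR-126a per clean read was 3.62 times the lowest, while the highest share of miRNA reads was 1.31 times the lowest.

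**Figure D1:**
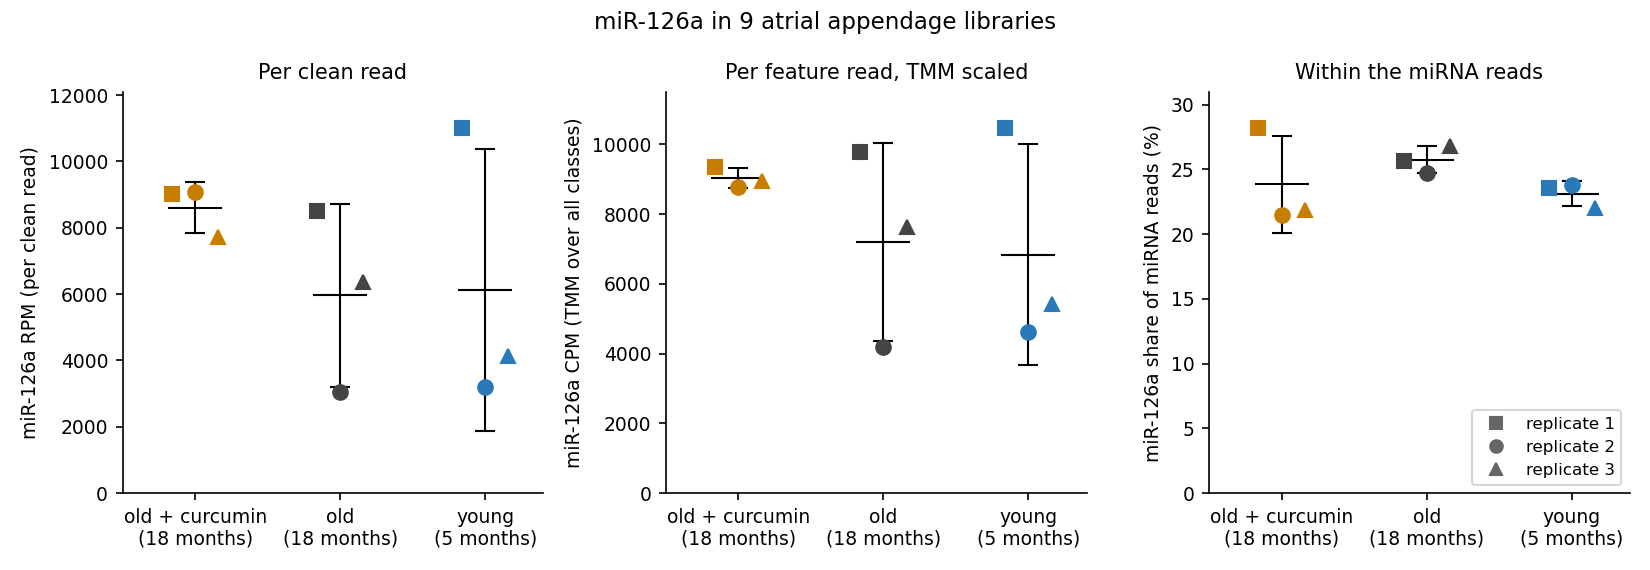
Level of miR-126a in each library, as RPM of clean reads (left), as CPM with TMM scaling over all small RNA classes (middle) and as percent of miRNA reads (right), with all axes starting at 0. Markers stand for libraries by replicate number, and black bars for the mean ± SD of 3 libraries. On the left the old and young libraries spread from 3039 to 10994.5, and on the right all 9 libraries sit between 21.5% and 28.2%.

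Within the miRNA reads, miR-126a made up between 21.5% and 28.2% of the reads of every library. Its share was 28.2%, 21.5% and 21.9% in curcumin libraries, 25.7%, 24.8% and 26.8% in old libraries, and 23.6%, 23.8% and 22.0% in young libraries. No 95% Wilson interval of these shares was wider than 0.183 points on a side; such intervals speak of counting error alone, as several reads can stem from 1 molecule. In the curcumin group, replicate 1 had the highest share of all 9 libraries and the other two had the lowest.

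Old libraries held a larger share of miR-126a than young libraries, with no overlap between the groups. The means were 25.8% ± 1.05 in old and 23.1% ± 0.987 in young libraries, a difference of 2.61 percentage points (SD, n = 3 each; exact two-sided permutation test, p = 0.1, the smallest it can give, and 0.514 adjusted over 12 tests). The difference was positive in 3 of 3 pairs of like number, at 2.07, 0.931 and 4.84 points (exact sign-flip test, p = 0.25, again the smallest possible). This pairing was chosen from these data and is not stated in the labels. Of the 209 miRNA precursors with enough reads to be tested, 9, or 4.31%, were higher in old than in young libraries with no overlap, and 16, or 7.66%, did not overlap in either direction; miR-126a is 1 of these 9. With the reads of miR-1a left out of the total, the old and young libraries overlapped, as given below. Values in the same libraries of the lists named for blood cells, and of miR-142a, are as follows. The erythroid list (miR-144, miR-451a, miR-486a and miR-486b) summed to 0.122% to 0.346% of miRNA reads in old libraries and 0.284% to 0.635% in young libraries, highest in young replicate 1. In old libraries its members averaged 0.0137%, 0.0343%, 0.0817% and 0.0778% in that order. In young libraries they averaged 0.0734%, 0.156%, 0.109% and 0.103%. The 3 matched members of the leukocyte and platelet list (miR-150, miR-155 and miR-223) summed to 0.108% to 0.167% in old libraries and 0.139% to 0.197% in young libraries. miR-142a, a miRNA of blood cells that the list holds under another name and that is not in this sum, took 0.157%, 0.179% and 0.105% in old libraries and 0.594%, 0.117% and 0.115% in young libraries. The old and young libraries overlapped in both list sums and in miR-142a. The part of these miRNAs in the share of miR-126a was not tested.

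Curcumin libraries did not differ in this share from the other groups beyond their own spread. The mean was 23.8% ± 3.75 in curcumin and 25.8% ± 1.05 in old libraries, a difference of -1.91 points (n = 3 each, exact permutation p = 0.4, adjusted p = 0.533). Curcumin replicate 1 lay above every old library and curcumin replicates 2 and 3 below every old library. Against young libraries, at 23.1% ± 0.987, the difference was 0.70 points (n = 3 each, exact permutation p = 1), and the pairs of like number differed by 4.58, -2.35 and -0.12 points. Without the 3 libraries numbered 1 the differences were -4.12 points for curcumin against old, 2.88 for old against young and -1.24 for curcumin against young. With 2 libraries a group, the smallest exact p is 0.333, which each of these had.

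The share of a miRNA this abundant depends on the other large one. miR-1a took 34.96%, 41.8% and 41.2% of the miRNA reads in curcumin libraries, 34.9%, 29.4% and 34.3% in old libraries, and 37.5%, 30.4% and 34.4% in young libraries. The 2 curcumin libraries lowest in miR-126a were the 2 libraries highest in miR-1a. With the reads of miR-1a taken out of the total, the share of miR-126a was 43.3%, 36.9% and 37.2% in curcumin libraries, 39.4%, 35.1% and 40.8% in old libraries, and 37.8%, 34.2% and 33.6% in young libraries. All 3 comparisons then overlapped. The difference was 0.69 points for curcumin against old (exact permutation p = 0.9), the opposite sign from the -1.91 points with miR-1a in the total. It was 3.26 points for old against young (exact permutation p = 0.2) and 3.96 points for curcumin against young (p = 0.3), beside 2.61 and 0.70 points with miR-1a in the total.

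Set against the miRNA of heart muscle cells, miR-126a was lower in 2 of the 3 curcumin libraries than in any other library. Its reads were 0.806, 0.514 and 0.531 times those of miR-1a in curcumin libraries, 0.736, 0.841 and 0.784 times in old libraries, and 0.628, 0.784 and 0.640 times in young libraries. The log2 ratio differed by -0.38 for curcumin against old (exact permutation p = 0.3), by 0.21 for old against young (p = 0.3) and by -0.17 for curcumin against young (p = 0.6). Each of these comparisons overlapped. Without the 3 libraries numbered 1 the differences were -0.64, 0.20 and -0.44 in the same order of comparisons. Among the 207 tested precursors other than miR-1a, 66, or 31.9%, did not overlap between curcumin and old libraries in their ratio to miR-1a.

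A second ratio set miR-126a against miR-143 and miR-145a, which are made from 1 cluster and are known from smooth muscle and other mural cells of the vessel wall. miR-126a had 15.5, 11.7 and 12.5 times their summed reads in curcumin libraries, 15.4, 17.5 and 18.5 times in old libraries, and 15.99, 15.1 and 15.2 times in young libraries. Curcumin replicates 2 and 3 were again the lowest of the 9 libraries, and curcumin replicate 1 lay among the old and young ones. The log2 ratio differed by -0.38 for curcumin against old (exact permutation p = 0.2), 0.15 for old against young (p = 0.2) and -0.23 for curcumin against young (p = 0.3), and the adjusted p of each was 0.514. Without the 3 libraries numbered 1 the differences were -0.57, 0.25 and -0.33. The 2 members of this pair went opposite ways. miR-143 averaged 1.51% of miRNA reads in curcumin, 1.09% in old and 1.06% in young libraries. miR-145a averaged 0.293% in curcumin, 0.417% in old and 0.440% in young libraries. The sum is mostly miR-143, so the order of groups in this ratio is not that against miR-145a, which was lowest in curcumin.

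**Figure D2:**
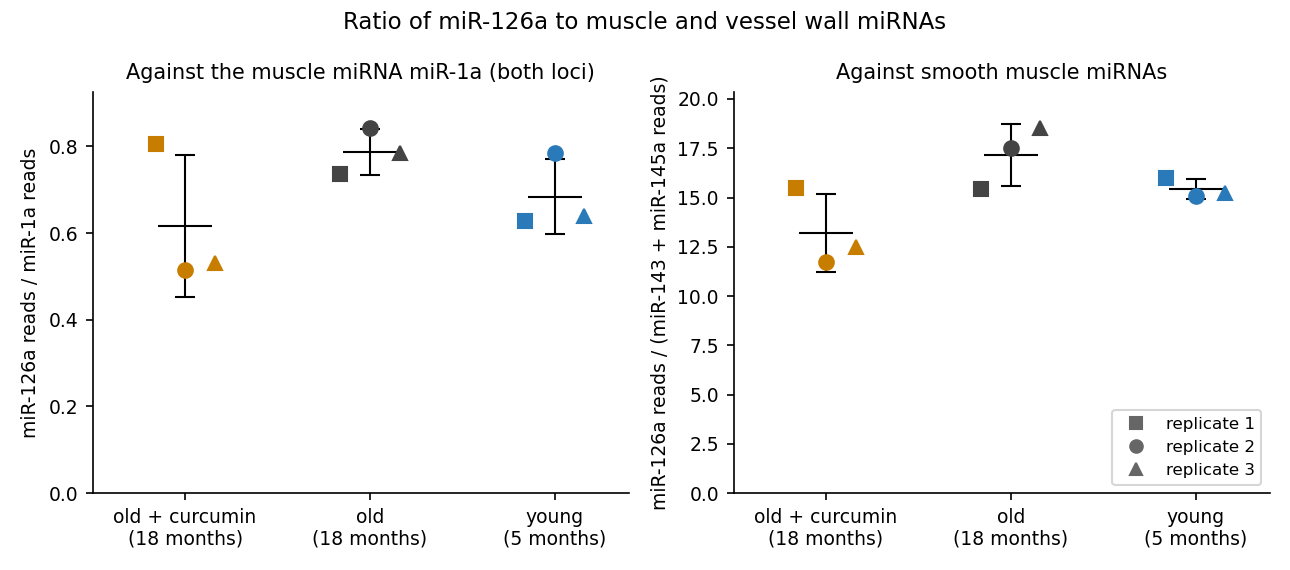
Reads of miR-126a divided by reads of both loci of miR-1a (left) and by the summed reads of miR-143 and miR-145a (right) in each library, on axes starting at 0. Markers stand for libraries by replicate number, and black bars for the mean ± SD of 3 libraries. Curcumin replicates 2 and 3 have the lowest ratios in both panels, and curcumin replicate 1 sits with the other groups.

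In the fit across all small RNA classes, miR-126a did not pass the test in any comparison. Its CPM (reads per 1000000 feature reads, with TMM scaling) were 9342, 8783 and 8947 in curcumin libraries, 9781, 4178 and 7641 in old libraries, and 10451, 4615 and 5424 in young libraries. The means were 9024 ± 287 in curcumin, 7200 ± 2827 in old and 6830 ± 3162 in young libraries (SD, n = 3 each). The order of the means is curcumin, old and young, and neither neighbouring pair differed beyond its spread. The log2 change was 0.33 for curcumin against old (SE 0.37, 95% interval -0.50 to 1.15, adjusted p = 0.917, edgeR's quasi-likelihood test with Benjamini-Hochberg adjustment). It was 0.08 for old against young (SE 0.37, interval -0.75 to 0.90, edgeR adjusted p = 0.999). It was 0.40 for curcumin against young (SE 0.37, interval -0.43 to 1.23, edgeR adjusted p = 0.942). These intervals leave room for a change of more than 1 unit of log2 upward in either curcumin comparison. No feature passed: 0 of 520, or 0%, had an adjusted p under 0.05 in edgeR in each comparison, with 21, 5 and 19 under an unadjusted p of 0.05, while DESeq2 called 0, 0 and 1 features, with 29, 5 and 30 unadjusted.

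Scaled among the miRNAs alone, where reads of other classes do not enter, the changes were smaller in the curcumin comparisons and their errors narrower. Levels in this scaling still went with miRNA content. The CPM of miR-126a were 200056, 200326 and 201651 in old replicate 2, young replicate 2 and young replicate 3, the libraries lowest in all miRNAs. In the other libraries they were at least 243600. The log2 change was 0.13 for curcumin against old (SE 0.19, interval -0.29 to 0.54), 0.16 for old against young (SE 0.19, interval -0.26 to 0.57) and 0.28 for curcumin against young (SE 0.19, interval -0.13 to 0.70). The edgeR adjusted p were 0.873, 0.965 and 0.647, and 0 of 209 miRNAs, or 0%, passed in each comparison, with 15, 4 and 17 under an unadjusted p of 0.05. With the replicate number as a block, 1, 0 and 6 miRNAs passed in the 3 comparisons, and miR-126a was not among them (edgeR adjusted p = 0.826, 0.9502 and 0.505). For curcumin against old the sign is positive here and negative for the share of miRNA reads. TMM scaling sets miR-126a against the typical miRNA and the share sets it against a total of which miR-1a is the largest part.

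The libraries numbered 1 changed 1 of these calls. Without them, in an alternative with 2 libraries a group, the log2 change over all classes was 0.59 for curcumin against old (SE 0.25, edgeR adjusted p = 0.0983), 0.24 for old against young (adjusted p = 0.986) and 0.83 for curcumin against young (SE 0.25, adjusted p = 0.0307). The last of these passed the test, beside 67 of 519 features, or 12.9%, that did so in that comparison, 37 of them, or 7.13%, with a higher level in curcumin. Over the other alternatives for curcumin against young, the adjusted p ran between 0.365 and 1.00. Among the miRNAs alone and without the same libraries, the log2 change for curcumin against young was 0.27 (edgeR adjusted p = 0.317, and 0.115 to 0.852 over the alternatives in that scaling), and miR-126a was not among the 31 of 210 miRNAs, or 14.8%, that passed. Without libraries numbered 1, miRNAs took 4.22% and 3.53% of clean reads in curcumin libraries, 1.23% and 2.37% in old libraries and 1.34% and 1.88% in young libraries. The part of this in the calls was not tested.

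**Figure D3:**
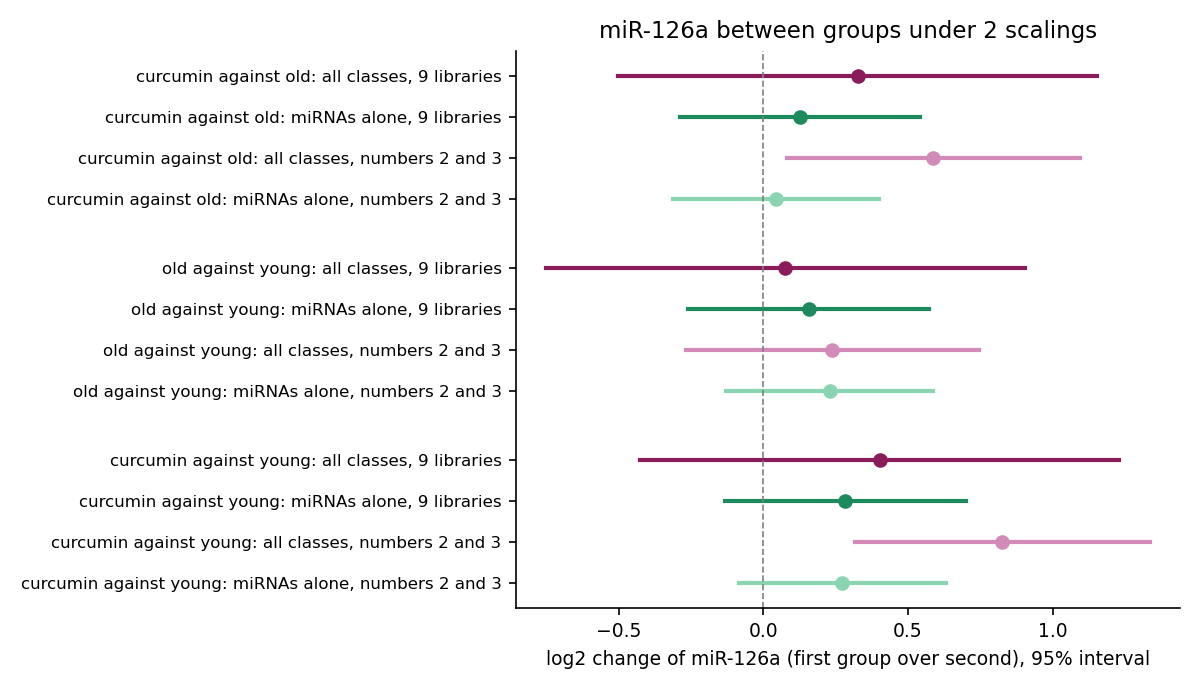
Log2 change of miR-126a between groups (points) with its 95% interval (lines) from edgeR, for scaling over all small RNA classes and over miRNAs alone, with all 9 libraries and without the 3 libraries numbered 1. With 9 libraries all 6 intervals cover 0, and without libraries numbered 1 the 2 curcumin comparisons over all classes lie above 0, at 0.59 and 0.83, while those over miRNAs alone cover 0.

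miR-126a held a middle to upper place among the changes of other miRNAs. Over all classes its log2 change was the 90th highest of the 209 tested miRNAs for curcumin against old, where the median miRNA was at 0.25 and 161 were above 0. It was the 49th highest for old against young, where the median was -0.15 and 69 were above 0, and the 54th highest for curcumin against young, where the median was 0.07. Among miRNAs alone it was 90th, 44th and 50th, with medians of 0.02, -0.10 and -0.07. The 3 comparisons share their libraries in pairs, so these places are not independent of each other.

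**Figure D4:**
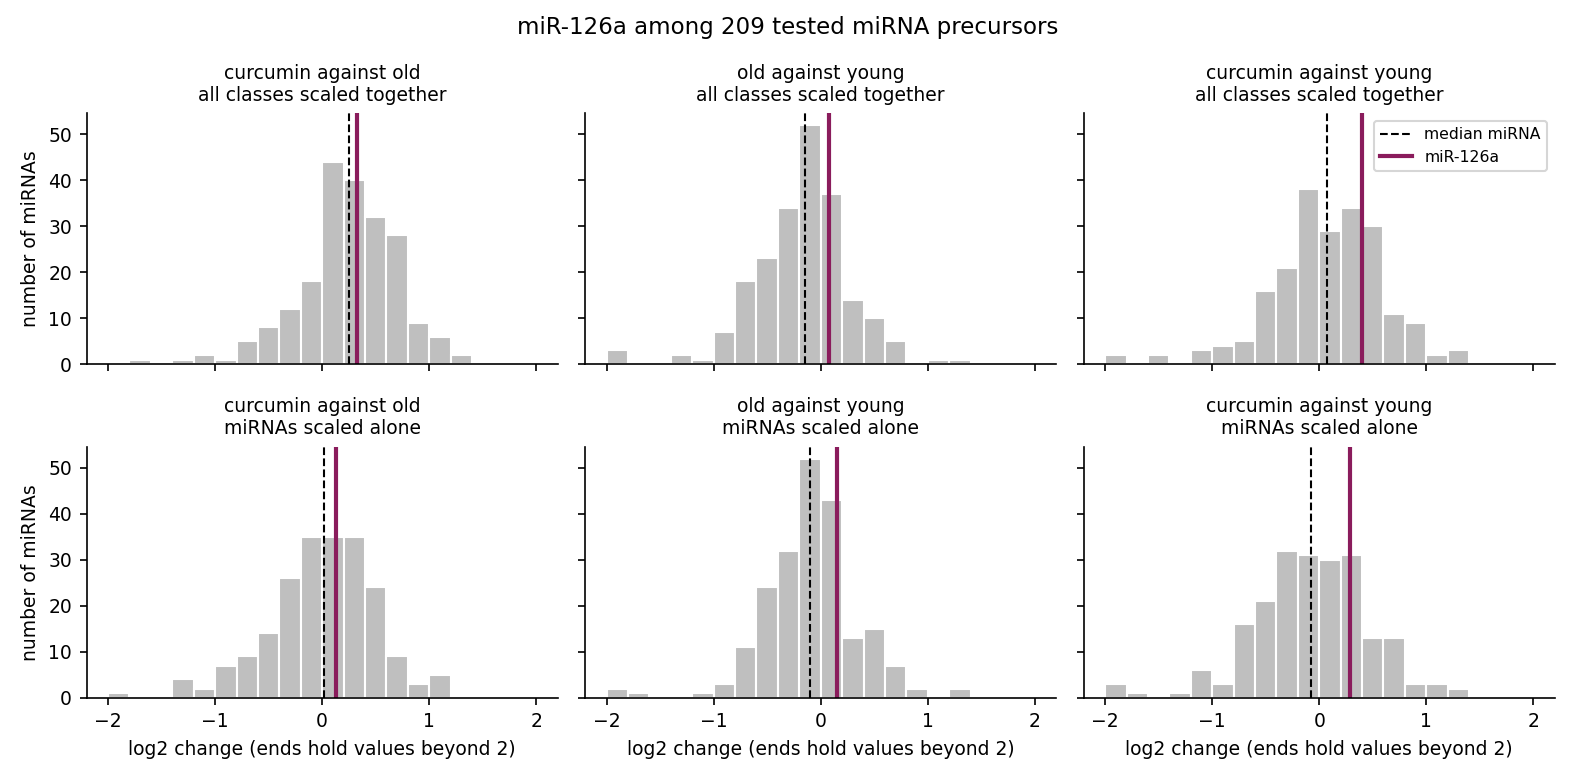
Number of tested miRNA precursors (of 209) by log2 change in each comparison, scaled over all classes (top) or over miRNAs alone (bottom), with the median miRNA (dashed) and miR-126a (solid). miR-126a lies to the right of the median in all 6 panels, at 0.33 against a median of 0.25 in the panel at the top left.

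The spread of miR-126a between libraries was low for its share and, among abundant miRNAs, nearer the middle for its CPM. Over the 9 libraries, the coefficient of variation (SD over mean) of its share of miRNA reads was 9.59%, the 8th lowest of 209 tested miRNAs, whose median was 36.5%. Many of these have few reads, so the 20 most abundant are a closer set. Among them miR-126a ranked as number 3 from the bottom, between let-7f-1 at 6.98%, the lowest, and miR-191 at 39.0%, the highest. For CPM over all classes the value was 30.7%, the 65th lowest of 209, with a median of 37.8%. A share this large is a large part of its own total, and the bearing of this on its low spread was not tested.

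**Figure D5:**
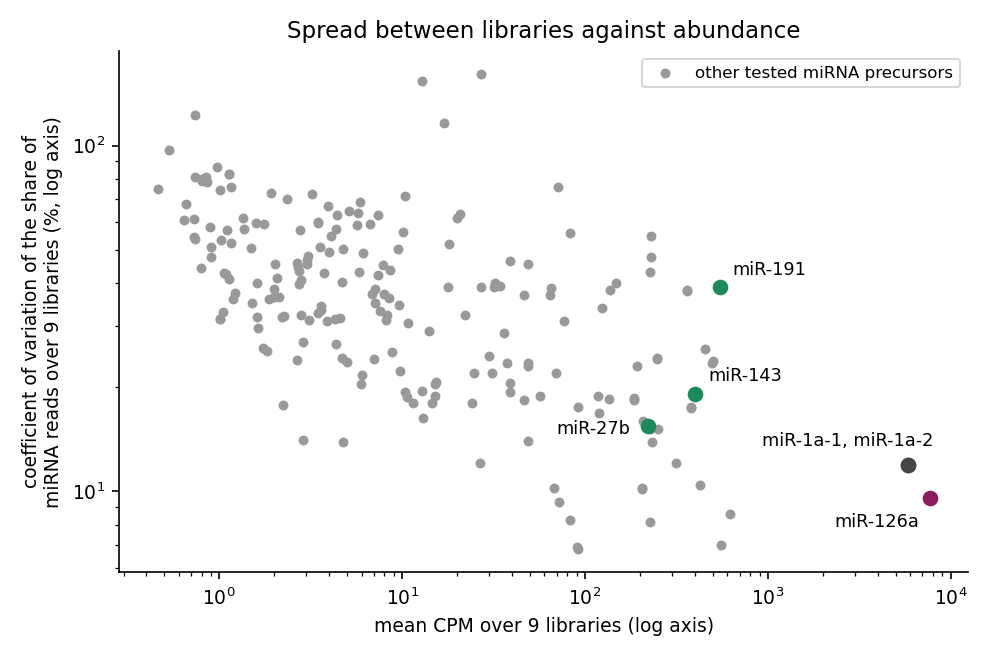
Coefficient of variation of the share of miRNA reads over 9 libraries (%, log axis) against mean CPM (log axis) for 209 tested miRNA precursors, each a point. miR-126a, at 9.59%, and the 2 loci of miR-1a sit at the far right, and miR-191, with a mean of 549 CPM, varies more, at 39.0%.

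Other miRNAs known from endothelium and vessel growth were far below miR-126a. The list held 17 precursors, all found in the files, of which 14 had enough reads to be tested; miR-126b, miR-92a-2 and miR-132 did not. Without miR-126a, its 16 members summed to 1.96% to 2.26% of miRNA reads in curcumin libraries, 2.08% to 2.27% in old libraries and 1.93% to 2.26% in young libraries, so the groups overlapped. The largest were in the clusters that hold miR-23, miR-27 and miR-24, which are known to take part in vessel sprouting. miR-27b averaged 0.676% of miRNA reads, miR-24-2 0.447%, miR-24-1 0.264% and miR-23a 0.226%. Over the 9 libraries miR-126a had 34.2 times the reads of miR-27b and 137 times those of miR-130a, known in human endothelial cells to lower antiangiogenic homeobox genes. It had 1278 times the reads of miR-221 and 4549 times those of miR-222, a pair known to lower the receptor Kit in human endothelial cells. Loci of the same mature miRNA, such as miR-24-1 and miR-24-2, share reads, so their separate counts are uncertain.

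None of the 13 other tested members of this list passed the edgeR test with group as the only term in any comparison, where 0% of all features did. For curcumin against old, 13 of 13 had a log2 change above 0 over all classes, with a median of 0.32, beside 0.25 for all tested miRNAs and 0.08 for all 520 features. Among miRNAs alone, 9 of 13 were above 0, with a median of 0.08, beside 0.02 for all miRNAs. For old against young, 6 of 13 were above 0 over all classes (median -0.01) and 7 of 13 among miRNAs alone (median 0.03). For curcumin against young, 9 of 13 were above 0 over all classes (median 0.32) and 8 of 13 among miRNAs alone (median 0.20). miR-27b had the same order of groups as miR-126a in CPM, at 295 ± 12.4 in curcumin, 188 ± 97.4 in old and 183 ± 106 in young libraries (SD, n = 3 each). Its log2 change was 0.65 for curcumin against old (SE 0.47, edgeR adjusted p = 0.917) and 0.04 for old against young (SE 0.46, adjusted p = 0.999). By mean CPM, miR-222, miR-23a, miR-24-2, miR-10a and miR-10b had that order of groups too. The order differed for miR-221, miR-27a, miR-23b, miR-24-1, miR-92a-1, miR-130a and miR-210. For curcumin against old, the log2 changes of members other than miR-27b ranged between 0.07 for miR-24-1 (SE 0.29) and 0.86 for miR-210 (SE 0.82). miR-210, a miRNA induced by low oxygen, had only 158 reads in all libraries together. For old against young the changes ranged between -0.58 for miR-92a-1 (SE 0.57) and 0.54 for miR-10b (SE 0.84). miR-92a-1 is of the miR-17-92 cluster, and miR-10b is a miRNA from a Hox gene cluster. miR-132, an angiogenic miRNA, had 51 reads in all libraries together and miR-92a-2 had 27.5, a fraction because its reads are divided with its other locus.

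The other marker lists give the makeup of the miRNA reads beside these values. The muscle list summed to 35.9% to 43.1% of miRNA reads in curcumin libraries, 30.7% to 36.0% in old libraries and 32.1% to 38.6% in young libraries, nearly all of it miR-1a. The smooth muscle pair summed to 1.75% to 1.83% in curcumin, 1.41% to 1.66% in old and 1.45% to 1.58% in young libraries, its members differing as given above. The fibroblast list (miR-199a, miR-214 and miR-21a) summed to 0.801% to 1.05% in curcumin, 0.586% to 0.938% in old and 0.659% to 0.883% in young libraries. The erythroid list summed to 0.0766% to 0.142% in curcumin libraries, below every young library, and the 3 matched members of the leukocyte and platelet list to 0.117% to 0.157%. The epithelial, neuronal and hepatocyte lists each stayed at or below 0.109% in every library. No member of these lists passed the edgeR test in any comparison with 9 libraries and group as the only term. This holds over all classes and among miRNAs alone. The part of these lists in the values of miR-126a was not tested.

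Of the miRNAs whose levels went most like that of miR-126a over the 9 libraries, miR-27b, miR-322, miR-23a and miR-29a were among the first 5 in both scalings. By Pearson correlation of log2 CPM over all classes the first 5 were miR-192, miR-27b, miR-322, miR-23a and miR-29a, with r between 0.97 and 0.98. In that scaling libraries rich in miRNA are high in most miRNAs: the median r over the 208 other tested miRNAs was 0.67, and 42 of them were above 0.9. Among miRNAs alone the median r was 0.02, and the 5 highest were miR-21a at 0.91, miR-27b at 0.88, miR-29a at 0.88, miR-23a at 0.87 and miR-322 at 0.86. These r describe 9 libraries that share depth and preparation, 3 of which stand apart. Of these miRNAs, miR-21a is abundant in fibroblasts and raised in many stressed tissues. Its log2 change among miRNAs alone for curcumin against old was 1.06 (SE 0.63, edgeR adjusted p = 0.799) and did not pass the test. The change was 0.13 for miR-126a and 0.03 for miR-23a.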

How the data were processed

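Per the labels' protocols, total RNA was treated with AlkB and T4PNK, a short fraction was cut from a gel, and QIAGEN miRNA kit adapters were added. Per the submitters' processing notes, cutadapt 2.5 and the build mm10 were used. The tool that annotated reads, and whether molecular identifiers were counted, is not given in these sources. The deposited values are expected counts, which the authors divided among annotations where a read matched several, with no normalization; they were rounded to whole numbers for the tests. Class totals were left out, and 83.7% to 87.3% of clean reads fell in features.

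edgeR 4.0.16 (R 4.3.3; filterByExpr, TMM, robust quasi-likelihood, group as the only term, all 9 libraries) tested 520 features, and a repeat kept the 209 miRNAs alone. The limit was a Benjamini-Hochberg adjusted p under 0.05. DESeq2 1.42.0 was an alternative. Shares, levels per clean read and log2 ratios were compared by exact permutation in Python 3.11.15, and the Wilson intervals came from scipy 1.17.1. For other miRNAs' ratios to miR-1a, 0.5 reads were added to their counts. CPM used for correlations had a prior count of 2. The edgeR step was tested on simulated counts.

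Named miRNAs were miR-126a, the endothelial list, the 5 other most abundant precursors, the 5 most correlated in each scaling, and neighbours in rank; other marker miRNAs, and members picked out for their values, were named after these were seen. The miRNA and the lists were chosen with earlier results of these data known. Deviations from group means of libraries with the same number correlated at 0.27, -0.07 and 0.37 between curcumin and old, 0.81, 0.62 and 0.27 between old and young, and 0.33, 0.19 and 0.28 between curcumin and young. Libraries with different numbers correlated at -0.53 to 0.49, -0.73 to 0.54 and -0.30 to 0.22 in the same order. In each comparison some libraries of different number correlated more closely than some of like number. Like numbers were called pairs in the last 2 comparisons and not the first. That choice was made from these same data, and pairs in these 2 would link curcumin and old libraries as well. The main tests did not use the numbers, and the block and the sign-flip test were alternatives. The labels do not say what a number stands for.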

Additional observations from a re-analysis of the deposited data

How the results depend on the processing

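Ranks, shares and levels of miR-126a had 3 libraries a group behind them, which limits every comparison more than depth does, since each library held at least 50088 reads of it. The alternatives without libraries numbered 1, and all those for miRNAs alone, were chosen after seeing the data. Of 297 values recomputed under alternatives, 274 kept their direction and their side of the threshold or stayed near the first value, 11 moved, 11 reversed and 1 newly passed. The causes were not tested. Some of the 274 could not have changed. For shares, levels and log2 ratios no exact p can be under 0.1, so only their direction could change. Their sign-flip alternative reuses the first difference. With genome-matched reads only, the levels per clean read and the ratios are the same values. Scaling by clean-read totals moved the median change of all features for curcumin against old to 0.31, against 0.08 with TMM, and turned the log2 change of miR-126a for old against young to -0.034. Leaving out 1 library at a time gave that change as -0.19 (without old replicate 1) to 0.50 (without young replicate 1), 0.05 to 0.67 for curcumin against old and 0.27 to 0.79 for curcumin against young, with 0 features called each time. Among miRNAs alone the ranges were -0.033 (without curcumin replicate 1) to 0.18 for curcumin against old, 0.11 to 0.31 for old against young and 0.14 to 0.49 for curcumin against young, with 0 to 18 miRNAs called in the last (18 without young replicate 1, 0 otherwise). In RPM of clean reads the ranges were 1168 to 3907 for curcumin against old, -1599 to 2298 for old against young and 1034 to 4932 for curcumin against young. Shares differed by -4.07 to -0.73 points for curcumin against old, 2.05 to 3.11 for old against young and -1.46 to 1.88 for curcumin against young. Log2 ratios kept their sign, for miR-1a at -0.59 to -0.26, 0.15 to 0.31 and -0.38 to -0.06 in the same order of comparisons, and for miR-143 and miR-145a at -0.50 to -0.30, 0.09 to 0.22 and -0.35 to -0.15. Without the 3 libraries numbered 1, curcumin against old had 73 features called (26 with miRNAs alone) and curcumin against young 67 (31 with miRNAs alone); the log2 change of miR-126a for curcumin against young was 0.83, the RPM of clean reads differed by 1024 for old against young, and the share by -1.24 points for curcumin against young. Leaving miR-1a out of the miRNA total gave 0.69 points for curcumin against old, and adding loci together put miR-126a at rank 2 in each group. DESeq2 called 1 feature for curcumin against young. With the replicate number as a block, log2 changes were 0.43, 0.09 and 0.51 (edgeR adjusted p = 0.613, 0.999 and 0.780), and with miRNAs alone 1 miRNA was called for curcumin against old and 6 for curcumin against young; the block changed no call of miR-126a, and the exact sign-flip p of the differences within pairs was 0.25 to 1.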
